A study of Mus musculus with 4 samples.

Results

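The genes described here are 10 immediate early genes, Fos, Fosb, Jun, Junb, Egr1, Egr2, Atf3, Ier2, Ier3 and Dusp1, taken by gene symbol from the 55401 genes of the deposited count table. RNA-seq was performed on mouse embryonic stem cells (mESCs) of the line E14, either WT or with Haspin, a histone H3 kinase of mitosis, knocked out by CRISPR/Cas9 (Haspin-KO). Each group held 2 libraries, numbered as replicates 1 and 2 in the labels, and the labels do not say which knockout clone gave each Haspin-KO library or whether libraries of one number were grown or prepared together. The culture medium given for the mESCs was a serum medium with LIF and 2i, changed daily. The 2i are the MEK inhibitor PD0325901 and the GSK3 inhibitor CHIR99021. No other treatment is named for the sequenced cells, WT or Haspin-KO. The study's mESCs were passaged on mitomycin C-treated mouse embryonic fibroblasts and moved to gelatin for assays, and which of these preceded RNA extraction is not stated. Haspin-KO lines were made by transfection with a pair of guide RNA plasmids to the coding sequence, selected with puromycin and grown from single clones. No such steps are given for the WT cells. No text states that the libraries of a group came from separate cultures, so p-values measure the spread between these libraries, which may be technical.

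Immediate early genes are transcribed within minutes of a stimulus, without new protein synthesis. Growth factors and serum act on them through the MEK-ERK cascade and the factors SRF and ELK, whereas stress kinases and cAMP signaling reach them through JUN, ATF and CREB proteins. Many encode transcription factors. FOS and JUN proteins pair to form AP-1, EGR proteins are zinc finger activators, and DUSP1 switches the inducing kinases off again. In cultured cells their RNA is known to respond to medium change and handling.

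The bases before the transcription start are shown for 3 of these genes because they hold the short form of the cAMP response element (CRE), the letters TGACG or, on the other strand, CGTCA, which CREB and ATF proteins bind. Capitals mark these letters. All 3 sequences are from RefSeq on GRCm38.p6, run 5′ to 3′ on the strand of the gene and end at the base before its start. They lie at chr12:85473740-85473889 on the plus strand for Fos, chr8:84978749-84978898 on the minus strand for Junb and chr17:26508473-26508672 on the minus strand for Dusp1.
Fos: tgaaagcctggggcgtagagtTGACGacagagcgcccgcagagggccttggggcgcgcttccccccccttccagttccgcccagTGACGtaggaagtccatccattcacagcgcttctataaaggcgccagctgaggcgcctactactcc
Junb: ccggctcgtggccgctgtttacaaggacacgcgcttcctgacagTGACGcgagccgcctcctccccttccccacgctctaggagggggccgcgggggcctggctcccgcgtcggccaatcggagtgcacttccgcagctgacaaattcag
Dusp1: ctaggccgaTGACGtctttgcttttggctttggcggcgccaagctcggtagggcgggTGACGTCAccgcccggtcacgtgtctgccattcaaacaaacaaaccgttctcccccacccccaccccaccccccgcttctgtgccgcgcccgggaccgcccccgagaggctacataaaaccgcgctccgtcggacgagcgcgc
The short sites of Fos begin 129 and 66 bases before the start, and that of Junb begins 106 bases before it. In Dusp1, a lone short site begins 191 bases before the start, and the short sites that begin 143 and 140 bases before it overlap to form the full CRE, TGACGTCA. RefSeq windows of 250 bases before to 50 bases after the start were matched for 8 of the 10 genes. No window was available for Egr1 and Ier2. A short site was found in 6 of these 8 (Fos, Fosb, Junb, Egr2, Atf3 and Dusp1), against 23.0% of the 27025 genes with a window. The full CRE, which contains the short one, was found in Dusp1 alone, against 2.03% of genes. Egr2 was the one gene of these 8 whose window held a CArG box, the SRF site (1.81% of genes), or the ETS core CCGGAA on either strand (16.7%). Sites farther upstream, and any of Egr1 or Ier2, were not sought. The AP-1 site, TGAGTCA or TGACTCA (5.95%), and the EGR site GCGTGGGCG (0.707%), each sought on both strands, were in no window of the 8 genes. Matches of letters are a description and are not measured binding sites.

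The depth of the libraries was 21834847 and 17452307 counts in WT and 14207828 and 14436750 counts in Haspin-KO. A library was taken to show a gene above 3 counts, which was 0.137 to 0.210 CPM (counts per 1000000 counts of the library, scaled by TMM). Haspin itself, the targeted gene, had 40.1 and 35.7 CPM in WT and 10.4 and 14.6 CPM in Haspin-KO (log2 fold change -1.60, edgeR adjusted p = 0.00154). The mESC identity of the libraries was seen in Pou5f1, with 933 to 1072 CPM, Zfp42, with 622 to 814 CPM, and Dppa5a, with 823 to 981 CPM. Among 16 fibroblast markers, 12 were tested and 8 of them were called lower in Haspin-KO by edgeR (Col1a1, Col1a2, Col3a1, Col5a2, Col6a3, Lox, Postn and Prrx1). DESeq2 called 6 of the markers, and limma, which called 0 genes in the whole series, called 0 of them. Their summed level over all 16 was 230.3 and 172.0 CPM in WT and 37.7 and 38.3 CPM in Haspin-KO. Lox and Postn were at 0 counts in both Haspin-KO libraries, and Lum was at 0 in every library. The part of these fibroblast RNAs in the values below was not tested, and in bulk RNA fewer cells of a type and less RNA per cell cannot be told apart. Mitochondrial genes took 2.80% to 3.22% of the counts.

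The immediate early genes listed at the start differed widely in level, and the ranking here is among them only. On the per-length scale of FPKM, which allows a comparison between genes, Ier2, which encodes a short-lived nuclear regulator, was highest with 126.1 and 143.7 FPKM in WT and 106.8 and 126.0 FPKM in Haspin-KO. Its mean level lay above 97.9% of the 15580 genes tested. Junb, an AP-1 partner, followed with 17.8 to 26.7 FPKM, and Dusp1 had 7.47 to 8.58 FPKM. The ranges of these 3 genes over the 4 libraries did not overlap. All 3 lay above those of Jun, Ier3, Atf3, Fos, Egr1, Fosb and Egr2.

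Further down, the levels ran into each other. Jun, the main AP-1 partner of FOS, had 1.76 to 4.28 FPKM, which took in the whole range of Ier3, a survival factor, with 2.02 to 3.16 FPKM. Atf3, a stress-induced bZIP factor, had 1.33 to 2.06 FPKM, and Fos had 0.81 to 1.78 FPKM. The level of Egr1 went from 0.12 to 1.69 FPKM, so that no neighbouring pair from Jun down to Egr1 was separated beyond its spread. Fosb and Egr2 stayed at 0.02 to 0.06 FPKM. Thus the 10 genes ran from Ier2, among the more abundant mRNAs of these cells, to RNAs near or below the limit of 3 counts.

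**Figure D1:**
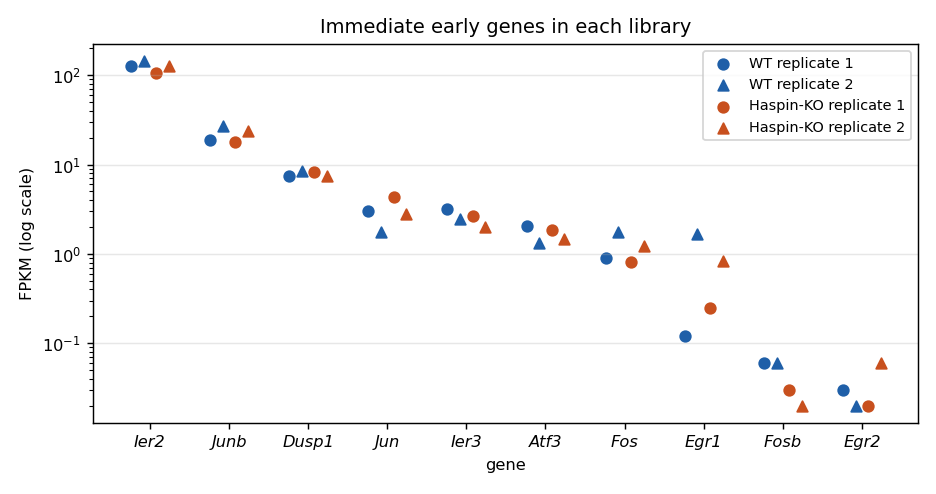
FPKM of the 10 immediate early genes (x axis, ordered by mean level) in each of the 4 libraries on a log axis, with blue marks for WT, orange marks for Haspin-KO, circles for replicate 1 and triangles for replicate 2. Ier2 lies above 100 FPKM in every library, and for Egr1 both triangles (1.69 and 0.83) lie above both circles (0.12 and 0.25).

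The first question was whether loss of Haspin changed these genes. Counts were compared with edgeR's quasi-likelihood test over all 15580 genes that passed its filter on low counts, and a gene was called when its Benjamini-Hochberg adjusted p was under 0.05 and its change over 2-fold. None of the 8 immediate early genes tested was called higher or lower in Haspin-KO. The background was 0.327% of all tested genes called higher and 0.501% called lower, so that 0 of 8 genes is also the count this background gives. At an unadjusted p under 0.05 the count was 0 as well, against 20.8% of all genes tested. DESeq2 called 0 of the immediate early genes. The count of limma was also 0, but limma called 0 genes in the whole series, so this count carries no information on these genes. The median log2 fold change of the 8 genes was -0.18, against -0.0039 for all genes tested, with 1 gene above and 7 below 0. Without WT replicate 2 this median turned to 0.10, and Fos, Junb, Egr1 and Dusp1 changed sign.

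None of the 8 genes had both Haspin-KO libraries on the same side of both WT libraries, whereas 52.3% of all tested genes did. The groups thus overlapped for each of these genes.

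Among the AP-1 genes, Jun (ENSMUSG00000052684, chromosome 4 of mm10, from 95049034 to 95052222, minus strand) had 9.52 and 5.65 CPM in WT and 13.5 and 8.90 CPM in Haspin-KO. Haspin-KO replicate 1 was the highest library, and Haspin-KO replicate 2 lay just below WT replicate 1. The log2 fold change of Jun was 0.55 (standard error, SE, 0.27, 95% interval -0.055 to 1.15, edgeR's quasi-likelihood adjusted p = 0.280). Without Haspin-KO replicate 2 it was 0.81 (edgeR adjusted p = 0.0235, in a range of 0.00265 to 0.690 over all settings tried), still under 2-fold. Leaving out WT replicate 1 gave 0.98, whereas the value fell to 0.24 without WT replicate 2 and to 0.22 without Haspin-KO replicate 1.

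Junb had 34.4 and 48.7 CPM in WT and 31.9 and 43.5 CPM in Haspin-KO. In each group the second library was the higher one, and the groups overlapped. Its log2 fold change was -0.14 (SE 0.18, edgeR adjusted p = 0.710). For Fos, the values were 2.11 and 4.21 CPM in WT and 1.88 and 2.94 CPM in Haspin-KO, which rest on 27 to 73 counts. The same order of replicates was seen in Fos as in Junb, with a log2 fold change of -0.37 (SE 0.38, 95% interval -1.23 to 0.49, edgeR adjusted p = 0.625). Atf3 had 4.44 and 2.88 CPM in WT and 3.90 and 3.22 CPM in Haspin-KO. Both Haspin-KO values of Atf3 fell between the WT values, and its log2 fold change was -0.054 (SE 0.28, edgeR adjusted p = 0.939).

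Fosb, a FOS relative that pairs with JUN proteins in the same way, was below the filter on low counts. It had 8 and 6 counts in WT and 3 and 2 counts in Haspin-KO, the latter not above the limit of 3 counts. Summed over the libraries of a group and scaled for depth, the ratio of Haspin-KO to WT was 0.489, with an exact interval from 0.138 to 1.44 that covers counting error only. The interval includes 1, so that a difference of Fosb was not resolved at this depth.

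Egr1 (ENSMUSG00000038418, chromosome 18 of mm10, from 34859823 to 34864984, plus strand), the growth-factor-induced zinc finger factor, was the most variable of the 10 genes. Its raw counts were 12 and 132 in WT and 16 and 54 in Haspin-KO, or 0.549 and 7.61 CPM in WT and 1.11 and 3.78 CPM in Haspin-KO. The lowest and the highest value both came from WT, with the Haspin-KO libraries between them. The log2 fold change was -0.69 (SE 0.89, 95% interval -2.68 to 1.31, edgeR adjusted p = 0.703), so that changes of over 2-fold in either direction are within its interval. Without WT replicate 2 the log2 fold change was 2.14 (adjusted p = 0.220 from edgeR), and without Haspin-KO replicate 2 it was -1.81 (edgeR adjusted p = 0.105), with adjusted p from 0.105 to 0.964 over all settings tried. The signs of Fos, Junb, Dusp1 and Atf3 also changed when 1 library was left out: without WT replicate 2 the log2 fold changes of Fos, Junb and Dusp1 were 0.20, 0.13 and 0.071, and without WT replicate 1 that of Atf3 was 0.30. Without Haspin-KO replicate 1 the value of Junb was 0.073, and without Haspin-KO replicate 2 those of Atf3 and Dusp1 were 0.072 and 0.030.

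Egr2, a related zinc finger factor best known from hindbrain and Schwann cells, had 2 and 1 counts in WT and 1 and 3 counts in Haspin-KO. No library was above the limit of 3 counts, and no fold change is given.

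Ier2 (ENSMUSG00000053560, chromosome 8 of mm10, from 84661331 to 84662854, minus strand) had 192.0 and 220.5 CPM in WT and 161.0 and 194.2 CPM in Haspin-KO, on 2312 to 4195 counts. Haspin-KO replicate 2 lay just above WT replicate 1, and the other Haspin-KO library was the lowest. The log2 fold change of Ier2 was -0.22 (SE 0.10, 95% interval -0.45 to 0.017, edgeR adjusted p = 0.272), an interval that lies within 2-fold in both directions. Leaving out Haspin-KO replicate 2 gave -0.36 (edgeR adjusted p = 0.0430, in a range of 0.00404 to 0.747 over all settings tried), whereas the value was -0.11 without WT replicate 2 and -0.084 without Haspin-KO replicate 1.

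Ier3 had 3.57 and 2.83 CPM in WT and 2.99 and 2.31 CPM in Haspin-KO, with a log2 fold change of -0.28 (SE 0.28, edgeR adjusted p = 0.613). This value was -0.096 without WT replicate 1, -0.43 without WT replicate 2, -0.47 without Haspin-KO replicate 1 and -0.11 without Haspin-KO replicate 2. Dusp1, the phosphatase of ERK, p38 and JNK, had 24.9 and 28.6 CPM in WT and 27.4 and 25.0 CPM in Haspin-KO. Both Haspin-KO values of Dusp1 lay between the WT values, and its log2 fold change of -0.030 (SE 0.12, 95% interval -0.30 to 0.24, edgeR adjusted p = 0.917) was the smallest of the 8. The deposited model of Dusp1 runs from 26505590 to 26562128 on chromosome 17 of mm10, beyond the RefSeq start whose upstream bases are printed above. It overlaps Ergic1 on the opposite strand and that of Jun overlaps Junos, and as no strand setting of the counting is given, reads of these pairs cannot be told apart. Junos had at most 11 counts in any library and Ergic1 at most 1689.

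**Figure D2:**
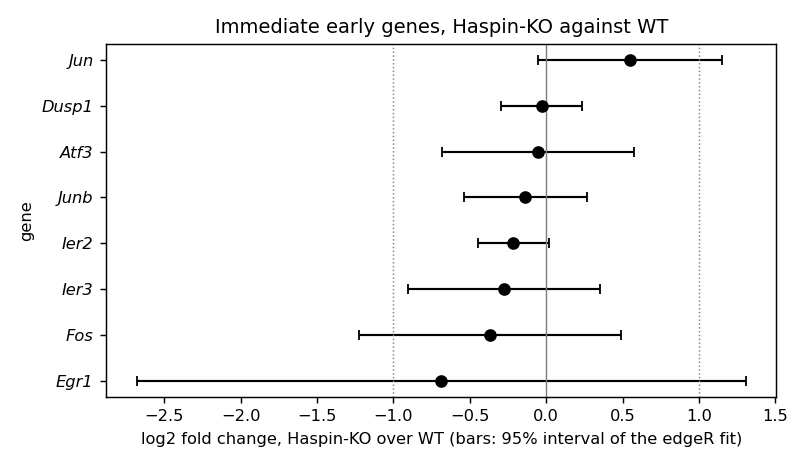
Log2 fold change of Haspin-KO over WT (x axis) for the 8 immediate early genes tested (y axis), with points for the edgeR estimate, bars for its 95% interval and dotted lines at 2-fold. All 8 intervals include 0, from the narrow one of Ier2 (-0.45 to 0.017) to that of Egr1 (-2.68 to 1.31).

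The second comparison set replicate 2 against replicate 1 within each group. With 1 library on each side there is no test, and the intervals given are exact binomial 95% intervals that cover counting error only. Between the WT libraries, 4 of the 8 genes differed over 1.5-fold (Egr1, Fos, Jun and Atf3), against 9.18% of all tested genes. Between the Haspin-KO libraries, 3 of the 8 did (Egr1, Fos and Jun), against 12.2%. These 3 genes differed over 1.5-fold in the same direction in both groups, which was the case for 3.02% of all tested genes and for 1.8% of the 14356 genes with at least 10 counts in every library, as all 8 had.

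Egr1 stood out in this comparison. In WT it was 13.9-fold higher in replicate 2 than in replicate 1 (interval 7.67 to 27.5), and in Haspin-KO 3.39-fold higher (interval 1.91 to 6.36). When the 14356 genes were ordered by the smaller of their 2 replicate ratios, with the direction shared between the groups, Egr1 was in place 3. Fos went the same way, with a ratio of replicate 2 to replicate 1 of 2.0 in WT (interval 1.36 to 2.96) and of 1.56 in Haspin-KO (interval 0.942 to 2.64), and the latter interval includes 1.

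More abundant genes showed smaller shifts of the same direction. For Junb, the ratio of replicate 2 to replicate 1 was 1.41 in WT (interval 1.28 to 1.56) and 1.36 in Haspin-KO (interval 1.21 to 1.54). The ratio of Ier2 was 1.15 in WT (interval 1.10 to 1.2) and 1.21 in Haspin-KO (interval 1.14 to 1.28). Neither gene reached 1.5-fold in either group, and for both genes no interval included 1.

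Other genes went the opposite way. Jun was lower in replicate 2, with a ratio of 0.594 in WT (interval 0.462 to 0.758) and 0.659 in Haspin-KO (interval 0.522 to 0.828). Atf3 had ratios of 0.650 in WT (interval 0.452 to 0.923) and 0.826 in Haspin-KO (interval 0.547 to 1.24), and those of Ier3 were 0.792 and 0.772, both with intervals that include 1. Dusp1 was the one tested gene without a shared direction, with 1.15 in WT and 0.914 in Haspin-KO.

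Altogether, Egr1, Fos, Junb and Ier2 were higher in replicate 2 in both groups, 4 of 8 genes against 30.7% of all tested genes. Jun, Atf3 and Ier3 were lower in both, 3 of 8 against 30.9%. The 8 tested genes thus did not shift as a block between the replicates: Jun went the opposite way to its AP-1 partners Fos and Junb between the same libraries. These counts of 4 and 3 genes were the same when TMM was replaced by the size factors of DESeq2 or by plain totals. The summed fibroblast markers, given above for each library, were higher in WT replicate 1 than in WT replicate 2, and their part in these replicate ratios was not tested.

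**Figure D3:**
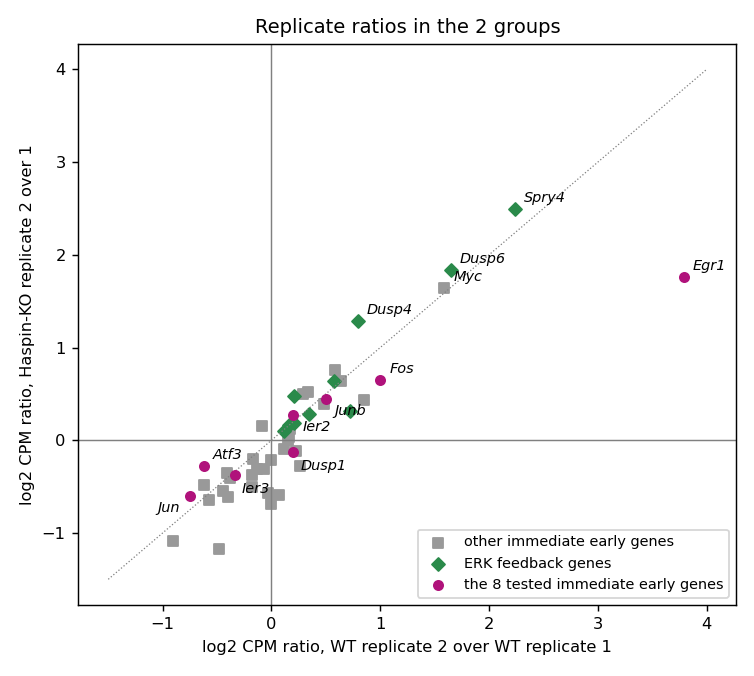
Log2 CPM ratio of replicate 2 over replicate 1 in WT (x axis) and in Haspin-KO (y axis) for the 8 immediate early genes (magenta circles), the other immediate early genes (grey squares) and ERK feedback genes (green diamonds) that were tested. The dotted line marks equal ratios, and Egr1 (3.79 and 1.76), Spry4 (2.24 and 2.49), Dusp6 and Myc lie far to the upper right while Jun, Atf3 and Ier3 lie to the lower left.

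Because the groups share replicate numbers, Haspin-KO was also set against WT within each number. For 5 of the 8 genes (Fos, Jun, Junb, Ier2 and Ier3) both same-numbered ratios lay on the same side of 1, against 71.5% of all tested genes. Egr1 did not keep its direction: Haspin-KO over WT was 2.03 for replicate 1 (interval 0.900 to 4.70) and 0.497 for replicate 2 (interval 0.355 to 0.687). With the numbers crossed, the ratios of Egr1 were 0.146 for Haspin-KO replicate 1 over WT replicate 2 and 6.89 for Haspin-KO replicate 2 over WT replicate 1. The choice of libraries thus set both the size and the sign of the difference.

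For each of the other tested genes the same-numbered ratios were closer to each other than for Egr1. Jun had Haspin-KO over WT ratios of 1.42 (interval 1.16 to 1.73) and 1.57 (interval 1.2 to 2.07) in replicates 1 and 2. The ratios of Ier2 were 0.838 (interval 0.797 to 0.882) and 0.881 (interval 0.838 to 0.925). Those of Junb (0.926 and 0.893) and Ier3 (0.839 and 0.818) lay closer together still. With crossed numbers the ratios spread from 0.934 to 2.39 for Jun and from 0.730 to 1.01 for Ier2. Nothing in the labels says that a shared number marks a shared culture, and these pairs of single libraries carry no test.

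**Figure D4:**
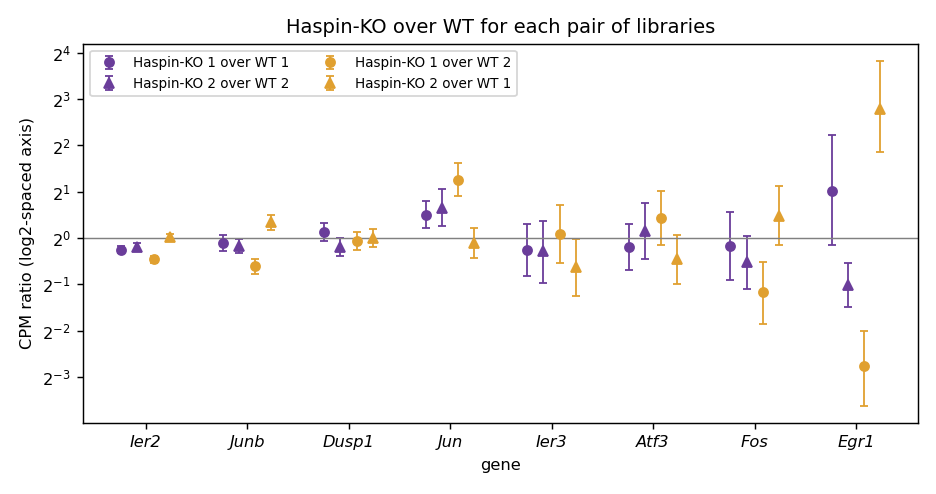
CPM ratio of Haspin-KO over WT (y axis, log2-spaced) for each pair of libraries and each of the 8 immediate early genes (x axis), with exact 95% intervals for counting error, purple marks for same-numbered pairs and yellow marks for crossed pairs. The same-numbered ratios of Jun (1.42 and 1.57) and Ier2 (0.838 and 0.881) lie close together, and those of Junb and Ier3 closer still. The 4 ratios of Egr1 run from 0.146 to 6.89.

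Other genes of the pathway were described from gene lists. The ERK feedback genes encode products that restrain the ERK cascade or act downstream of it. All 10 of 10 were higher in replicate 2 in both groups at any size, against the 30.7% of all tested genes given above. Their median log2 ratio was 0.46 in WT and 0.40 in Haspin-KO (close to 0 over all tested genes, at -0.00013 and -0.00066). Over 1.5-fold in both groups were 3 of the 10, against 3.02% of all tested genes in either shared direction. The ratios of Etv5, the most abundant of the 10, were 1.08 in WT and 1.07 in Haspin-KO. Spry4, which inhibits receptor tyrosine kinase signaling, had 25.6 and 121.1 CPM in WT and 22.6 and 127.4 CPM in Haspin-KO. It was in place 1 of the 14356 genes by its shared replicate ratio, 4.73-fold in WT and 5.63-fold in Haspin-KO.

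Dusp6, the phosphatase of ERK, was in place 4, with 14.2 and 44.6 CPM in WT and 19.8 and 71.0 CPM in Haspin-KO. Myc, from the list of other immediate early genes, was in place 6 with 13.7 and 41.4 CPM in WT and 16.5 and 51.5 CPM in Haspin-KO. These 3 genes were chosen with their values in view. In all 3, both second libraries were above both first libraries, as for Egr1, and their levels rest on 237 to 2100 counts per library where those of Egr1 rest on 12 to 132. Their genotype differences were small beside this, with log2 fold changes of 0.044, 0.64 and 0.32 (adjusted p = 0.981, 0.545 and 0.771 from edgeR).

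No ERK feedback gene was called between Haspin-KO and WT, and the median log2 fold change of the list was 0.21. Etv5, an ETS factor induced by FGF-ERK signaling, had 337.4 and 365.1 CPM in WT and 496.9 and 531.0 CPM in Haspin-KO, with both Haspin-KO libraries higher. Its log2 fold change was 0.55 (SE 0.074, edgeR adjusted p = 0.00767), under the 2-fold limit. Etv5 was the 1 gene of the 10 with an unadjusted p under 0.05 in edgeR, against 20.8% of all tested genes. Spry2 had a log2 fold change of -0.23 (adjusted p = 0.333 from edgeR).

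Of 36 other immediate early genes, 31 were tested and 0 were called. In edgeR, 3 of the 31 had an unadjusted p under 0.05, against 20.8% of all tested genes. The median log2 fold change of the list was 0.024. Between replicates, 10 of the 31 were higher and 15 lower in replicate 2 in both groups, against 30.7% and 30.9% of all tested genes. The most abundant were Sgk1, a serum-induced kinase (-0.12, adjusted p = 0.383), and Jund, an AP-1 partner (-0.017, adjusted p = 0.973), given as log2 fold change with edgeR's adjusted p. Jund shared the direction of Jun between the replicates, with 118.8 and 77.3 CPM in WT and 113.3 and 80.9 CPM in Haspin-KO. The smallest p-values belonged to Btg2, an antiproliferative gene (0.32, adjusted p = 0.106), and Ccn1, a matricellular gene (0.39, adjusted p = 0.130).

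The 25 upstream kinases and factors were all tested and 0 were called, with a median log2 fold change of -0.012. In edgeR, 7 of the 25 had an unadjusted p under 0.05, against 20.8% of all tested genes. Mrtfb, a coactivator of SRF, was higher in Haspin-KO by 0.48 on the log2 scale (adjusted p = 0.0368 from edgeR), under 2-fold. Mapk3, a kinase of the cascade, had a log2 fold change of -0.33 (adjusted p = 0.0803 from edgeR), and Rps6ka1, the kinase RSK1, one of -0.027. None of the 25 differed over 1.5-fold between replicates in either group, against 9.18% of all tested genes in WT and 12.2% in Haspin-KO. Higher in replicate 2 in both groups at any size were 12 of them and lower 2, against 30.7% and 30.9% of all tested genes.

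Heat shock genes, 11 of 11 tested, gave 0 calls and a median log2 fold change of 0.12. An unadjusted p under 0.05 in edgeR was seen for 5 of them, against 20.8% of all tested genes. Hsp90aa1, a cytosolic chaperone, had 3969 to 4536 CPM, and Hsph1 and Dnaja1, which assist HSP70, had log2 fold changes of 0.25 and 0.24 (adjusted p = 0.0882 and 0.0962 from edgeR). Among 10 genes of the integrated stress and unfolded protein responses 0 were called, with a median of -0.19. Here 3 had an unadjusted p under 0.05 in edgeR, against the same 20.8%. Sesn2 had a log2 fold change of 0.31 (adjusted p = 0.0535 from edgeR), and Asns and Hspa5, the most abundant, had -0.24 and 0.13. For the 0 calls in each of these lists, the background was 0.327% of all tested genes called higher and 0.501% called lower by edgeR. DESeq2 called 0 genes in any of these lists of kinases, feedback, early and stress genes. The count of limma was also 0, but limma called 0 genes in the whole series, so this count carries no information on the lists. Between replicates, 0 heat shock genes and 0 stress response genes were higher in replicate 2 in both groups at any size, against 30.7% of all tested genes. Lower in both groups at any size were 5 of 11 and 7 of 10, against 30.9%. Over 1.5-fold in both groups, 0 heat shock genes and 1 stress response gene were lower.

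The genes whose course over the 4 libraries was nearest to the mean course of the 8 immediate early genes were Mob3c, 2700081O15Rik, Ebag9, Nek8 and Pdcl. Nearness was the Euclidean distance between centred log2 CPM values, 0.041 to 0.071 for these genes, among 10003 genes with at least 100 counts in every library. The mean course itself was -0.22 and 0.28 in WT and -0.14 and 0.082 in Haspin-KO on the log2 scale, relative to its own mean. This course rested mostly on Egr1. Without Egr1, an alternative chosen after seeing the data, the mean course of the other 7 genes was 0.018 and 0.044 in WT and -0.030 and -0.032 in Haspin-KO, and 0 of the 5 nearest genes were shared. The genes named are thus near to a mean that Egr1 set and not to the 8 genes as a set.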

How the data were processed

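RNA was extracted with TRIzol, and SMARTER mRNA-seq libraries were sequenced by the authors. The authors trimmed the reads (Cutadapt 1.9.1), mapped them to mm10 (Hisat2 2.0.1) and deposited raw read counts per gene. HTSeq 0.6.1 is named in the submitters' processing notes, and its strand setting and the annotation release are not given in the sources used here. The deposited FPKM values equal counts per kilobase of exonic length and per 1000000 counts in 100% of values (within 0.01).

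Counts were normalized by TMM and tested over all genes with edgeR (4.0.16, R 4.3.3), without a block, and p-values were adjusted by Benjamini-Hochberg. Standard errors are the log2 fold change over the square root of F. Ddit3, the 1 listed symbol with several rows, used the longest gene model. Alternatives were DESeq2 (1.42.0), limma (3.58.1) on log2(FPKM + 0.1) with at least 0.5 FPKM in 2 libraries, other scalings and filters, thinning, a replicate block and leaving out each library. The fits were tested on simulated data.

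The genes and lists were chosen with earlier results of these data known. Named were all 10 genes, the called genes of each list or else its 2 highest in mean FPKM and its 2 with the smallest p, the 3 cell type markers of each list highest in mean FPKM in WT, any at 0 counts in every library and the 5 nearest courses. Recomputing the shared replicate directions under other scalings was chosen after seeing the data. The values of 1 gene that this rule names are not reported here.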

Additional observations from a re-analysis of the deposited data

How the results depend on the processing

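None of the 8 immediate early genes tested was called under any setting tried. Fosb and Egr2 entered only the fits of DESeq2 and of edgeR with no filter, where neither was called. The calls over all genes moved with the settings. Against 51 genes higher and 78 lower in Haspin-KO, there were 154 and 236 with no minimum fold, 125 and 140 with no filter on low counts, and 240 and 167 when the replicate number was blocked. DESeq2 called 42 lower, and a minimum of 10 counts in every library left 36 lower. In limma 0 and 0 genes were called (219 and 164 at an unadjusted p under 0.05 and over 2-fold). Leaving out 1 library gave 17 to 157 higher and 37 to 150 lower genes. At 2-fold in place of 1.5-fold, 1 of the 8 tested genes, Egr1, differed between the WT libraries and 1, also Egr1, between the Haspin-KO libraries.

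The median log2 fold change of the immediate early genes ran from -0.23 to 0.10 when 1 library was left out, with the positive value without WT replicate 2, and from -0.20 to -0.13 under the other settings. When 1 library was left out, the log2 fold change changed sign in 8 of 32 values, within ranges of -1.81 to 2.14 for Egr1, -0.81 to 0.20 for Fos, -0.38 to 0.13 for Junb, -0.32 to 0.30 for Atf3 and -0.13 to 0.071 for Dusp1. Jun (0.22 to 0.98), Ier2 (-0.36 to -0.084) and Ier3 (-0.47 to -0.096) kept their sign in these fits. No sign changed under the other settings. The replicate block left 1 residual degree of freedom, and its prior degrees of freedom were infinite (7.42 in the main fit). The spread of each gene was thus taken wholly from the trend over all genes, which limits the p-values of this fit. In it, Jun had a log2 fold change of 0.57 (adjusted p = 0.00265 from edgeR). Ier2 had one of -0.22 (adjusted p = 0.00404 from edgeR), and both were under 2-fold. Over all settings the adjusted p ran from 0.00265 to 0.690 for Jun and from 0.00404 to 0.747 for Ier2. The replicate ratios correlated between WT and Haspin-KO with r = 0.264 across 15554 genes, which are not independent, and with 2 pairs the numbers do not show that libraries were paired. The causes of these changes were not tested. Depth limits Fosb and Egr2, at 8 counts or fewer in every library.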
